A study of Mus musculus with 12 samples.

Results

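Neurotrophins are secreted growth factors, and the genes of 2 of them (Bdnf and Ntf3), of 4 of the receptors that bind them (Ntrk2, Ntrk3, Ngfr and Sort1) and of the related factor GDNF (Gdnf) were followed across RNA sequencing libraries of mouse meninges. The 7 genes were chosen by symbol from 27592 genes found in both annotations that the libraries were counted with. All 12 libraries were labelled as monocytes isolated from the meninges of male C57BL/6J mice with a magnetic kit, and 3 libraries made up each of 4 groups. The unstressed group had no restraint, and the other groups had 18 days of restraint stress followed by vehicle, psilocybin (a precursor of the serotonin receptor agonist psilocin) or MDMA (an amphetamine derivative that releases serotonin), with tissue taken 24 hours after administration. The sources used here give neither ages nor drug doses nor the number of animals behind a library. The p-values therefore compare differences between groups with the spread among these libraries, some of which may be technical. They cannot be read as statements about separate animals.

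Neurotrophins are made as precursors, cleaved by furin-type proteases and secreted, and the mature factors bind Trk receptor tyrosine kinases, with BDNF acting on TrkB (Ntrk2) and neurotrophin-3 acting mainly on TrkC (Ntrk3). The p75 receptor (Ngfr) binds all neurotrophins and, together with sortilin (Sort1), the uncleaved precursors, while GDNF signals through Ret and its GFR alpha coreceptors. In the peripheral nervous system these factors support the survival of sensory and sympathetic neurons, some of which innervate the meninges, and Bdnf transcription in neurons is known to follow activity and CREB.

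Library totals ran from 807725 counts (vehicle library 2) to 5136953 counts (MDMA library 3). The levels below are counts scaled to the library size after TMM scaling (CPM). Where libraries of 2 groups are said not to overlap, this is a description. An exact permutation test of 3 libraries against 3 gives a p of 0.1 at the smallest. The share of all genes that separate in this way was not counted. The vehicle libraries had the largest shares of the 27592 joined genes at 0: 62.5%, 51.2% and 65.5% in libraries 1, 2 and 3. The 9 other libraries had 35.0% (MDMA library 1) to 48.1% (unstressed library 1). Of 7027 genes chosen for at least 10 CPM in all 9 other libraries, 611, 60 and 812 were without any count in vehicle libraries 1, 2 and 3. By that choice, the other libraries can lack none of them. The 8 markers of classical monocytes, the labelled cell type, summed to between 331.3 and 429.6 CPM in unstressed, 418.4 and 729.6 in vehicle, 218.3 and 881.5 in psilocybin and 780.0 and 1732 in MDMA libraries. They did not move together: in vehicle library 1 Csf1r and Ly6c2 had 0 counts and Ccr2 had 1, while Lyz2 had 1177. Choroid plexus markers summed to between 14960 and 40510 CPM in unstressed, 18070 and 142600 in vehicle, 64230 and 127600 in psilocybin and 20770 and 41460 in MDMA libraries. These sums lay above the monocyte marker sums in every library, so the libraries held many transcripts of other cells. In such mixed samples, fewer cells of a type and less RNA per cell cannot be told apart. The unstressed libraries also came from a separate deposit and were counted with another annotation than the stressed ones. Neither of these differences can be told apart from the stress.

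Bdnf lies on chromosome 2 (109674700 to 109727007, plus strand, GRCm38) and is transcribed from many starts, which gene-level counts pool. RefSeq gives 7 windows of 300 bases around its starts (250 bases before and 50 after, GRCm38.p6). Only 1 of them holds the CREB half-site TGACG on either strand, and it is shown because this 5-base sequence is the core of the element through which activity is known to drive Bdnf. The capitals mark the half-site, which reads CGTCA on the plus strand shown here, at chr2:109692186-109692485.
Bdnf start window: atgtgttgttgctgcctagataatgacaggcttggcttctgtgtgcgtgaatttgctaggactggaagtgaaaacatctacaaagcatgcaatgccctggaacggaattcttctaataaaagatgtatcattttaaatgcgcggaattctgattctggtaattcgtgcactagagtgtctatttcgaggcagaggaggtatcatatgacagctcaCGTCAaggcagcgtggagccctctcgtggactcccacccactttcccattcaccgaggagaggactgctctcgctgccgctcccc
Of all 32851 RefSeq windows of this length, 20.81% hold the half-site on either strand, as does 1 of the Gdnf windows, so the match describes these letters only. RefSeq windows were found for 5 of the 7 genes, Ntrk3 and Sort1 having none in the table.

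**Figure D1:**
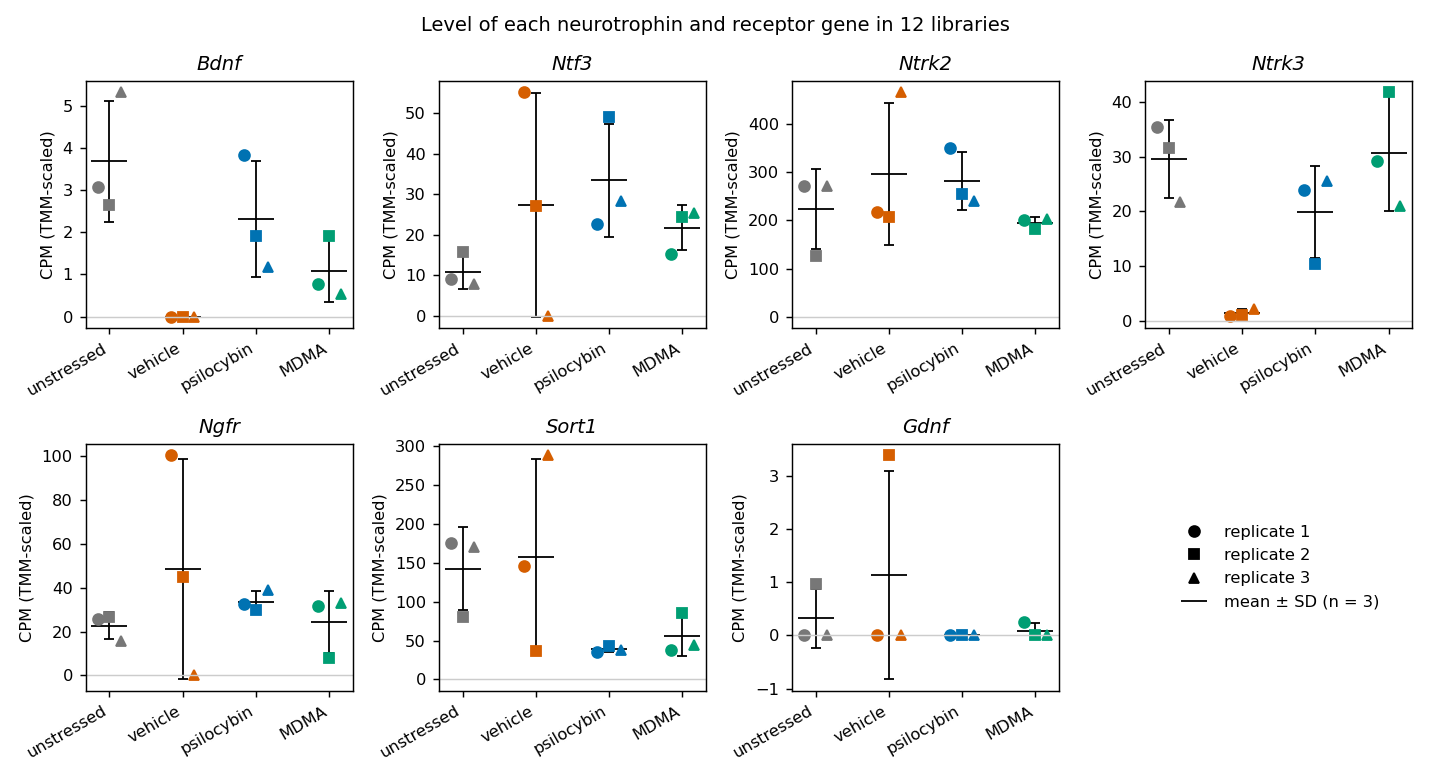
Level of each gene in CPM (TMM-scaled, linear axes with different ranges) in the 3 libraries of each group, with replicates 1, 2 and 3 as circle, square and triangle and the mean ± SD as lines. Bdnf was at 0 and Ntrk3 at or under 2.21 CPM in all 3 vehicle libraries, whereas Ntf3 and Ngfr spread from 0 to the highest level of any library within the vehicle group.

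Ntrk3, the TrkC receptor gene, was lower in vehicle than in unstressed libraries. It was the only one of the 7 genes that edgeR called in any comparison. Its level was 35.5, 31.6 and 21.7 CPM in unstressed libraries 1, 2 and 3. The vehicle libraries held 0.92, 1.13 and 2.21 CPM, resting on 3, 1 and 3 counts. Vehicle libraries 1 and 3 lacked counts for many abundant genes, and the part of this in the Ntrk3 level was not tested. All vehicle libraries lay below every library of the other groups, and the pooled vehicle level of 1.27 CPM had a 95% exact Poisson interval of 0.511 to 2.62, which covers counting error only. The log2 difference of vehicle from unstressed was -4.38 ± 0.96 (SE), with an adjusted p of 0.0354 by the quasi-likelihood test of edgeR after Benjamini-Hochberg adjustment over 13946 genes. Of all genes tested, 3.43% passed in this comparison (31 higher, 447 lower), against 1 of the 6 genes tested here (DESeq2 called 2 of the 6, Ntrk3 and Bdnf, and 12.5% of all genes); the median of all genes was -0.18.

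The drug groups held Ntrk3 at levels that overlapped the unstressed ones. Psilocybin libraries 1, 2 and 3 had 23.9, 10.3 and 25.6 CPM, and MDMA libraries had 29.2, 41.8 and 20.9 CPM. Every drug library thus lay above all vehicle libraries. The log2 difference from vehicle was 3.81 ± 0.94 (SE) for psilocybin and 4.42 ± 0.96 for MDMA, with adjusted p of 0.0933 and 0.0518, which did not pass. Both comparisons share the vehicle libraries with the comparison against unstressed mice. Against unstressed mice the difference was -0.57 ± 0.79 for psilocybin and 0.05 ± 0.79 for MDMA, and between the drugs it was -0.61 ± 0.79. From high to low, the group means were 30.6 ± 10.5 (SD, n = 3) in MDMA, 29.6 ± 7.09 in unstressed, 19.9 ± 8.39 in psilocybin and 1.42 ± 0.69 CPM in vehicle libraries, and the neighbours in that order overlapped except psilocybin and vehicle. The test of any difference among the 4 groups, which 0.581% of all genes passed, gave Ntrk3 an adjusted p of 0.126.

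Ntrk3 lies on chromosome 7 (78175959 to 78738012, minus strand). Its exons cover 18980 bases in the RefSeq annotation of the unstressed libraries and 30170 in GENCODE vM21, which stands for that of the stressed libraries. The Jaccard index of the 2 was 0.584, and the part of the annotation in the Ntrk3 difference was not tested. The call was lost in 5 of 11 alternatives, with adjusted p of 0.0818, 0.0823 and 0.0888 without unstressed library 1, 2 or 3, 0.0632 without the filter on low counts and 0.0969 with the replicate block. Without vehicle libraries 1 and 3 the difference was -4.66 with an adjusted p of 0.0477, where the vehicle group is library 2 alone, with 1 Ntrk3 count, assumed to vary like the other groups. Over the alternatives the difference ran from -4.83 to -4.07. TrkC is known from sensory neurons and vascular smooth muscle, and the summed markers of these cell types overlapped between the groups. The 8 pericyte and smooth muscle markers summed to between 2584 and 5598 CPM in unstressed and between 2505 and 7262 in vehicle libraries, and the 8 neuron markers to between 29.7 and 555.9 and between 42.7 and 804.7 CPM. Single markers differed in either direction. Notch3 stood at 10.7, 23.7 and 47.1 CPM in vehicle and at 272.5, 123.8 and 168.7 CPM in unstressed libraries, lower without overlap like Ntrk3, Tagln was higher in all vehicle libraries (4.41 to 17.8 against 0.341 to 1.16 CPM), and the 6 other pericyte and smooth muscle markers and all 8 neuron markers overlapped. Of the neuron markers, Nefl and Nefm were at 0 in all unstressed libraries and Rbfox3 in all vehicle libraries, and no pericyte or smooth muscle marker was at 0 in all libraries of either group. The 8 Schwann cell and oligodendrocyte markers summed to between 888.9 and 1605 CPM in unstressed and between 1012 and 1556 in vehicle libraries, although Sox10 had 0, 8 and 0 counts in vehicle libraries 1, 2 and 3 and between 49 and 89 in unstressed ones. Sox10 was the only one of these 8 that was lower in vehicle libraries without overlap, and Mbp the only one that was higher. The part of these cell types in the Ntrk3 result was not tested.

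Bdnf, the ligand of TrkB, was scarce everywhere and had no count in the vehicle group. The unstressed libraries held 3.07, 2.65 and 5.31 CPM from 9, 11 and 23 counts. Psilocybin libraries held 3.83, 1.91 and 1.19 CPM from 12, 5 and 5 counts, and MDMA libraries 0.781, 1.92 and 0.532 CPM from 3, 5 and 3. All vehicle libraries therefore lay below all others, but their depth limits what a count of 0 shows: a floor of 3 counts equals 0.92, 3.39 and 2.21 CPM in vehicle libraries 1, 2 and 3, and 3.39 CPM is above 2 of the unstressed libraries and every drug library except psilocybin library 1. The group means were 3.68 ± 1.43 CPM (SD, n = 3) in unstressed, 2.31 ± 1.37 in psilocybin, 1.08 ± 0.74 in MDMA and 0 in vehicle libraries, and of the neighbours in that order only MDMA and vehicle did not overlap.

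Measured against a floor of 3 counts over the vehicle group, Bdnf was at least 6.92-fold lower in vehicle than in unstressed libraries, with an adjusted p of 0.0506 by edgeR. On the same floor, the level was 4.05-fold higher with psilocybin than with vehicle (adjusted p = 0.119) and 1.67-fold higher with MDMA (adjusted p = 0.169). None of these passed the threshold of 0.05. Vehicle libraries 1, 2 and 3 also lacked any count for 611, 60 and 812 of the 7027 genes with at least 10 CPM in all 9 other libraries. The part of this in the Bdnf level was not tested. MDMA libraries all lay below unstressed ones, with a log2 difference of -1.79 ± 1.01 (SE) and an adjusted p of 0.999, whereas psilocybin libraries overlapped both the MDMA libraries (1.12 ± 1.01) and the unstressed ones (-0.67 ± 0.97). Without vehicle library 2 the adjusted p against unstressed was 0.0215 and that of psilocybin against vehicle 0.0376, and DESeq2 gave 0.0284 for vehicle against unstressed. Both settings called more of all genes as well. DESeq2 called 12.5% of all genes in vehicle against unstressed, where edgeR called 3.43%. Of the fits leaving out 1 library, that without vehicle library 2 called the most genes in both comparisons. The exons cover 6714 bases in RefSeq and 6217 in GENCODE, of which 5321 are not shared with another gene.

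Ntf3, which encodes neurotrophin-3, the main ligand of TrkC, showed no difference between groups that passed the test. It is located on chromosome 6 (126101412 to 126166910, minus strand). Levels were 9.21, 15.7 and 7.86 CPM in unstressed, 22.7, 49.2 and 28.4 CPM in psilocybin and 15.4, 24.5 and 25.5 CPM in MDMA libraries. Vehicle libraries 1, 2 and 3 held 55.2, 27.1 and 0 CPM, from 180, 24 and 0 counts, so the highest and the lowest level of all libraries were both in this group. Psilocybin libraries all lay above unstressed ones, by 1.61 ± 1.17 (SE) on the log2 scale with an adjusted p of 0.967, and the exons cover 2074 bases in RefSeq and 1714 in GENCODE. The group means of Ntf3 were 33.4 ± 14 (SD, n = 3) CPM with psilocybin, 27.4 ± 27.6 with vehicle, 21.8 ± 5.6 with MDMA and 10.9 ± 4.18 in unstressed libraries, with all neighbours overlapping. Their order was not that of the Ntrk3 means, which is a description only, as no Ntf3 comparison passed.

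Ntrk2, the TrkB receptor, was the most counted of the 7 genes, and no comparison of it passed the test. It is found on chromosome 13 (58806569 to 59133970, plus strand), and its transcripts include truncated forms without the kinase domain, which gene counts do not separate. The level was 272.5, 127.1 and 271.7 CPM in unstressed and 217.5, 206.5 and 466.3 CPM in vehicle libraries. Psilocybin libraries held 351.2, 254.5 and 239.8 CPM, and MDMA libraries 200.3, 181.6 and 203.6 CPM. The MDMA libraries all lay below the vehicle and the psilocybin libraries. The log2 difference of MDMA from vehicle was -0.60 ± 0.46 (SE, adjusted p = 0.572) and that of psilocybin from MDMA 0.53 ± 0.46 (adjusted p = 1). The 3 MDMA libraries were the closest to each other, with an SD of 11.9 CPM, against 146.9 CPM in the vehicle group. Group means were 296.8 ± 146.9 CPM (SD, n = 3) with vehicle, 281.8 ± 60.5 with psilocybin, 223.8 ± 83.7 in unstressed and 195.2 ± 11.9 with MDMA, all neighbours overlapping. The exons cover 35372 bases in RefSeq and 19292 in GENCODE (Jaccard index 0.408), and the log2 differences from unstressed mice, which rest on both, were 0.41 ± 0.46 for vehicle, 0.33 ± 0.46 for psilocybin and -0.20 ± 0.46 for MDMA.

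**Figure D2:**
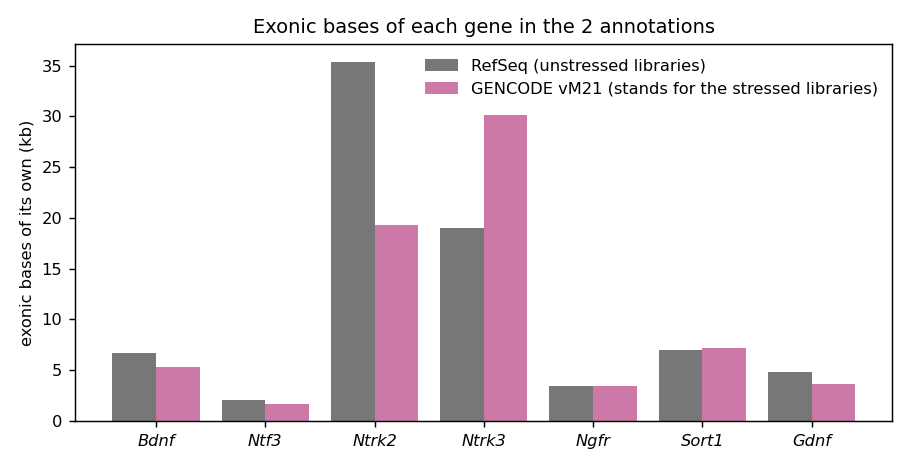
Exonic bases (kb) of each gene that are not shared with another gene, in the RefSeq annotation used for the unstressed libraries (grey) and in GENCODE vM21, which stands for the annotation of the stressed libraries (pink). Ntrk2 has 35372 bases in RefSeq against 19292 in GENCODE and Ntrk3 the reverse order, 18980 against 30170, while Ngfr and Sort1 have nearly the same exons in both.

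Ngfr, which encodes the p75 receptor, spread widely within the vehicle group, and none of its differences passed the test. Its locus is on chromosome 11 (95568818 to 95587735, minus strand), with nearly the same exons in both annotations. Unstressed libraries held 25.9, 26.5 and 15.7 CPM, and psilocybin libraries 32.6, 29.8 and 38.9 CPM. MDMA libraries held 31.8, 8.05 and 33 CPM, and vehicle libraries 100.6, 45.2 and 0 CPM from 328, 40 and 0 counts. Group means were 48.6 ± 50.4 CPM (SD, n = 3) with vehicle, 33.7 ± 4.66 with psilocybin, 24.3 ± 14.1 with MDMA and 22.7 ± 6.08 in unstressed libraries, with all neighbours overlapping. As with Ntf3, vehicle library 1 was the highest and vehicle library 3 the lowest of all 12. The log2 difference of vehicle from unstressed was 1.1 ± 1.18 (SE), with an adjusted p of 0.684. Psilocybin libraries all lay above unstressed ones, by 0.57 ± 1.17 with an adjusted p of 0.999.

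Sort1, which encodes sortilin, a sorting receptor that binds neurotrophin precursors together with p75, was lower in all psilocybin than in all unstressed libraries, but the difference did not pass the test. It sits on chromosome 3 (108284082 to 108361511, plus strand), with nearly the same exons in both annotations. Its level was 35.8, 43.1 and 37.7 CPM in psilocybin and 176, 80.6 and 170.5 CPM in unstressed libraries. MDMA libraries held 38, 86.2 and 44.8 CPM, and vehicle libraries 145.7, 37.2 and 289.1 CPM. Vehicle libraries 1 and 3 thus stood above all drug libraries, while vehicle library 2 lay among them. Group means were 157.3 ± 126.3 CPM (SD, n = 3) with vehicle, 142.4 ± 53.6 in unstressed, 56.4 ± 26.1 with MDMA and 38.9 ± 3.81 with psilocybin, and each overlapped its neighbour. The log2 difference of psilocybin was -1.87 ± 0.69 (SE) from unstressed (adjusted p = 0.571) and -2.02 ± 0.69 from vehicle (adjusted p = 0.166), and that of MDMA was -1.34 ± 0.68 (adjusted p = 0.999) and -1.48 ± 0.68 (adjusted p = 0.286) by edgeR.

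The Sort1 differences from vehicle changed with the tool and with the vehicle libraries used. DESeq2 on all libraries gave an adjusted p of 0.0288 for psilocybin against vehicle, where it called 7.58% of all genes. Without vehicle library 2, adjusted p was 0.00994 for psilocybin and 0.0297 for MDMA. Of the fits leaving out 1 library, this one also called the most of all genes in both comparisons. Without vehicle libraries 1 and 3, which lacked counts for many abundant genes, the log2 difference turned to 0.08 for psilocybin and 0.61 for MDMA, the vehicle group then being library 2 alone, the lowest of the 3 in Sort1. The part of those missing genes in the result was not tested.

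Gdnf was at or near 0 in every group and did not pass the filter on low counts. Located on chromosome 15 (7810846 to 7837575, plus strand), it had 4 counts in unstressed library 2, 3 in vehicle library 2, 1 in MDMA library 1 and none in the 9 other libraries. Two-sided exact permutation tests of log2(CPM + 1) gave p = 1 in all 6 comparisons, where 0.1 is the smallest p that 3 libraries against 3 allow. The pooled level of the psilocybin group, with 0 counts, has a floor of 0.301 CPM, so a lower Gdnf level was not detectable at this depth.

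**Figure D3:**
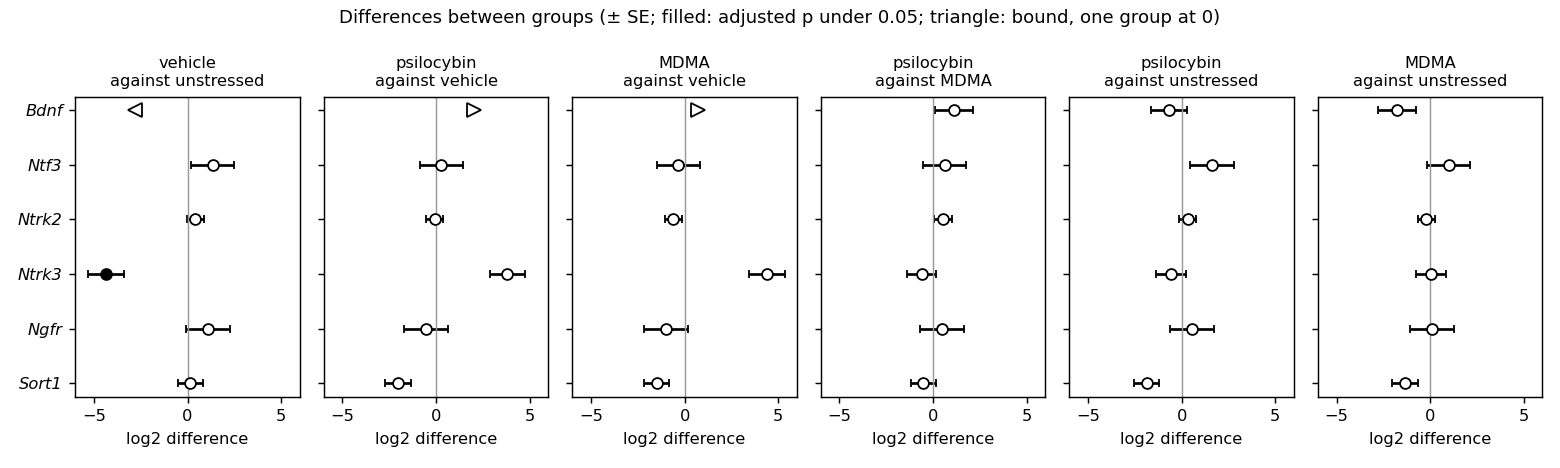
Log2 difference ± SE of the 6 tested genes in the 6 comparisons of group pairs, with a filled point for an adjusted p under 0.05. Triangles are bounds of Bdnf from counting error only, where the vehicle group was at 0. Ntrk3 in vehicle against unstressed is the only filled point (-4.38), and no difference between psilocybin and MDMA lies further from 0 than that of Bdnf (1.12 ± 1.01).

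Between the comparisons, edgeR held a call among the 6 genes tested only in vehicle against unstressed. In psilocybin against vehicle edgeR called 0 of the 6 and 0.0143% of all genes (2 genes, and 0 with the replicate block, an alternative whose pairing the labels do not give). There, 3 of the 6 had an unadjusted p under 0.05 (Bdnf, Ntrk3 and Sort1), as did 15.9% of all genes, and DESeq2 called 2 of the 6 (Ntrk3 and Sort1) and 7.58% of all genes. For MDMA against vehicle, edgeR called 0 of the 6 and 0.674% of all genes. The same 3 genes were under an unadjusted 0.05, as were 16.7% of all genes, and DESeq2 called 1 of the 6 (Ntrk3) and 9.58% of all genes. Psilocybin and MDMA were not distinguished by any of the 6 genes: edgeR and DESeq2 called 0, none had an unadjusted p under 0.05, and 0% of all genes passed (81 under an unadjusted 0.05). In psilocybin against unstressed edgeR and DESeq2 called 0 with 1 under 0.05 (Sort1; 0.086% of all genes passed), and in MDMA against unstressed both called 0 with 0 under 0.05 (0.122% of all genes).

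Levels can be compared between the genes only per length, here as CPM per kb of exons in the annotation of each group. In the psilocybin group the level was 19.5 ± 8.15 (SD, n = 3) CPM per kb for Ntf3, 14.6 ± 3.14 for Ntrk2, 9.79 ± 1.35 for Ngfr, 5.13 ± 0.50 for Sort1, 0.661 ± 0.278 for Ntrk3 and 0.371 ± 0.220 for Bdnf. In the MDMA group it was 12.7 ± 3.27 for Ntf3, 10.1 ± 0.62 for Ntrk2, 7.45 ± 3.44 for Sort1, 7.04 ± 4.08 for Ngfr, 1.01 ± 0.35 for Ntrk3 and 0.173 ± 0.119 for Bdnf. By group mean per length, the TrkB gene stood above the TrkC gene in all 4 groups. The neurotrophin-3 gene likewise stood above the BDNF gene, with the values of the unstressed and vehicle groups given below. In the unstressed group, with RefSeq lengths, Sort1 came first at 20.5 ± 7.72 CPM per kb, Ngfr stood at 6.67 ± 1.78, Ntrk2 at 6.33 ± 2.37, Ntf3 at 5.26 ± 2.02, Ntrk3 at 1.56 ± 0.37 and Bdnf at 0.548 ± 0.213. In the vehicle group it was 20.8 ± 16.7 for Sort1, 16 ± 16.1 for Ntf3, 15.4 ± 7.62 for Ntrk2, 14.1 ± 14.6 for Ngfr, 0.047 ± 0.023 for Ntrk3 and 0 for Bdnf. All exons of a gene enter its length, which lowers the value of genes with many isoforms such as Ntrk2 and Ntrk3.

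**Figure D4:**
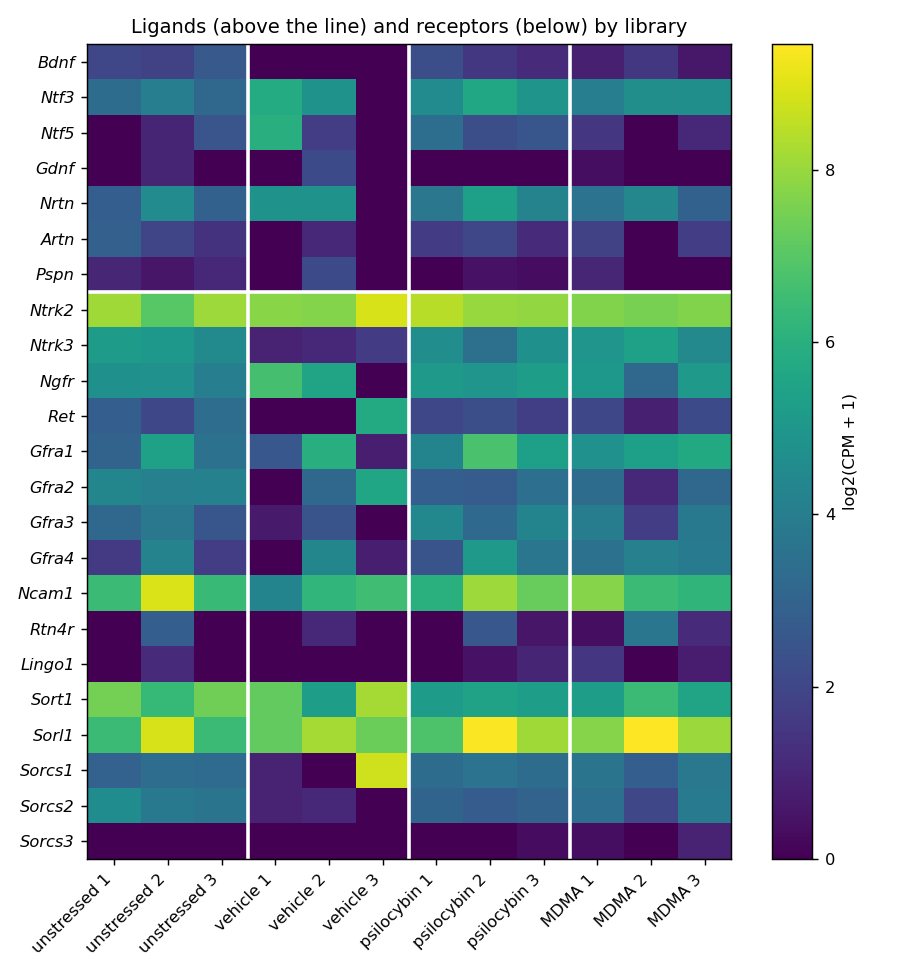
Level of 7 ligand genes (above the horizontal line) and 16 receptor, coreceptor and sorting receptor genes (below) as log2(CPM + 1), by library, with vertical lines between groups. All 7 ligands shown are at 0 in vehicle library 3, while Ntrk2 is high in every library.

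The other ligands and receptors were read from lists of the pathway. Vehicle library 3 had no count for any of 7 ligand genes of the neurotrophin and GDNF families, of 1954222 counts in all, and 65.5% of all 27592 joined genes were at 0 in this library. Its floor of 3 counts is 2.21 CPM for each. Ntf5, which encodes neurotrophin-4, another ligand of TrkB, had 198, 2 and 0 counts in vehicle libraries 1, 2 and 3 and at most 30 elsewhere. It was highest in vehicle library 1, as Ntf3 was.

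The GDNF family receptors were spread in another way. Ret had 0, 0 and 74 counts in vehicle libraries 1, 2 and 3 and between 2 and 41 in the others. Its coreceptor Gfra1 had 16, 54 and 1 counts in vehicle libraries, and pooled counts of 239 in the unstressed, 502 in the psilocybin and 502 in the MDMA group. Gfra3, the coreceptor of artemin, had 2, 4 and 0 counts in vehicle libraries and between 6 and 77 in the others. The ligands neurturin (Nrtn), artemin (Artn) and persephin (Pspn) had pooled counts of 141, 38 and 10 in unstressed, 114, 1 and 3 in vehicle, 219, 20 and 2 in psilocybin and 133, 23 and 4 in MDMA libraries. Pooled counts in the same order of groups were 197, 70, 76 and 83 for Gfra2, 89, 18, 151 and 163 for Gfra4, 2628, 253, 1553 and 1447 for Ncam1, a coreceptor of GDNF, 25, 1, 15 and 40 for Rtn4r and 5, 0, 5 and 11 for Lingo1, the last 2 being partners of p75.

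Among 77 pathway genes found in both annotations, 63 were tested. In vehicle against unstressed, 1 was higher and 1 lower (Ntrk3), with a median of -0.26 against -0.18 for all genes tested. That is 2 of 63, where edgeR called 3.43% of all genes, and 14 had an unadjusted p under 0.05, as did 18.6% of all genes. DESeq2 called 6 of the 63 and 12.5% of all genes. The higher gene was Ripk2, a kinase that binds the death domain of p75 and is also known from innate immune signalling. The unstressed libraries lay between 26.1 and 34 CPM and the vehicle libraries between 62.1 and 249.3 CPM, with no overlap. The log2 difference was 2.58 ± 0.65 (SE), with an adjusted p of 0.0465 by edgeR, and the call was lost without any 1 of the unstressed libraries (adjusted p from 0.115 to 0.12), without vehicle library 1 (0.0708), without the filter (0.0765), with the replicate block (0.103), and without vehicle libraries 1 and 3, where the difference was 1.06 (0.262). Psilocybin and MDMA libraries, at 24.9 ± 2.74 and 28 ± 8.21 CPM (SD, n = 3), differed from vehicle by -2.84 ± 0.66 and -2.67 ± 0.65, with adjusted p of 0.0876 and 0.0672.

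In the 5 other comparisons edgeR called 0 of the 63 pathway genes. At an unadjusted p under 0.05 there were 11 in psilocybin against vehicle, 11 in MDMA against vehicle, 0 in psilocybin against MDMA, 4 in psilocybin against unstressed and 2 in MDMA against unstressed, against 15.9%, 16.7%, 0.581%, 6.35% and 4.98% of all genes. DESeq2 called 6, 5, 0, 1 and 0 of the 63 in that order, and 7.58%, 9.58%, 0%, 1.76% and 1.57% of all genes. The list medians of vehicle against unstressed were 0.64 for 5 ligands, -0.09 for 10 receptors and coreceptors, 0.02 for 4 sorting receptors of the sortilin family and -1.01 for 6 genes of precursor processing. They were -0.42 for 20 Trk adaptors and kinases, -0.33 for 10 p75 adaptors and 0.49 for 8 activity-dependent targets. For psilocybin against vehicle, where the median of all genes was 0.31, they were 0.34, 1.36, -0.60, 0.68, -0.22, 0.12 and 0.16 in the same order. For MDMA against vehicle, where it was 0.24, they were -0.34, 0.93, -0.25, 0.89, 0.08, -0.02 and 0.13.

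The lists without a call were represented by their genes of smallest p in the edgeR test over 4 groups, none of which passed with all libraries. In that test DESeq2 called 5 of the 63 pathway genes and 10.2% of all genes. Mapk3, Sorcs1, Sorcs2 and Fos passed in at least 1 alternative, and Egr2, Ntf5, Plcg1, Pcsk5 and Plat in none. Mapk3, which encodes the kinase ERK1 below the Trk receptors, stood at 168.9 ± 49.4 (SD, n = 3) CPM in unstressed, 141.6 ± 96.9 in vehicle, 41.1 ± 2.27 in psilocybin and 72.3 ± 26.9 in MDMA libraries, with an adjusted p of 0.213. Sorcs2, a sorting receptor of the sortilin family, had 4 counts in the vehicle group against 171 in the unstressed group (adjusted p = 0.229 over 4 groups). Its relative Sorcs1 had 3, 0 and 594 counts in vehicle libraries 1, 2 and 3 and between 16 and 73 in the others (adjusted p = 0.257). Pooled counts of the remaining sorting receptors were 2578 in unstressed, 954 in vehicle, 3281 in psilocybin and 4141 in MDMA libraries for Sorl1, and 0, 0, 1 and 6 for Sorcs3. Fos, an activity-dependent transcription factor gene, stood at 592.4 ± 205.1 CPM in unstressed, 1178 ± 533 in vehicle, 1550 ± 132 in psilocybin and 1218 ± 127 in MDMA libraries, with an adjusted p of 0.27, and that of Egr2, another such gene, was 0.5. The adjusted p was 0.437 for Ntf5, 0.444 for Plcg1, the phospholipase bound by Trk receptors, 0.531 for Pcsk5, a protease of the furin family, and 0.602 for Plat, a protease that makes plasmin.

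The genes whose levels were most like each of the 7 were sought over the 9 stressed libraries, as the smallest root mean square difference of centred log2(CPM + 1), among genes of at least 5 CPM. For Ntrk3 these were Inhba (0.244), Cpm (0.305) and Ugt8a (0.328), against a median of 1.80 over all genes compared. Inhba, which encodes an activin subunit, had 0 counts in all vehicle libraries, between 9 and 43 in psilocybin and between 43 and 61 in MDMA libraries. Ugt8a, the enzyme of myelin galactolipid synthesis, had 0, 0 and 1 counts in vehicle and between 20 and 62 in drug libraries. For Sort1 they were Cd2ap (0.172), Scarb2 (0.246) and Spopl (0.252). Scarb2, a lysosomal membrane receptor, had 573, 49 and 501 counts in vehicle libraries, the same low library 2 as Sort1.

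For Ngfr the most alike were Ikbkg (0.12), Atf2 (0.197) and Tab1 (0.22). Ikbkg, a regulatory subunit of the IKK complex, had 611, 71 and 1 counts in vehicle libraries 1, 2 and 3. For Ntf3 they were Nt5c3b (0.156), Laptm4b (0.229) and Akr1e1 (0.232), and Nt5c3b had 559, 89 and 3 counts there. For both genes the likeness thus includes the near absence of counts in vehicle library 3. For Ntrk2 they were Nudc (0.145), Sf3b2 (0.171) and Slc13a4 (0.176), where its own spread was small (0.416, against 1.67 for Ntrk3). Over all 12 libraries, 1 of the 3 genes stayed among the 3 for Ntf3, Ntrk3 and Ngfr, 2 for Ntrk2 and 0 for Sort1. The points share libraries and their depth, and these values are a description.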

How the data were processed

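Counts came from 12 libraries, 3 in each of 4 groups, with groups and replicate numbers from the sample titles. Per the labels' protocols, 5 ng of PicoPure-extracted RNA went into each NEBNext library. The deposited values were raw whole-number counts for each gene. The submitters' processing notes name STAR 2.7.5c, featureCounts 2.0.1, fastp 0.23.2, edgeR 3.42.4 and the mm10 build, with no role or order. Per the file headers, featureCounts made the unstressed counts from the exons of RefSeq genes on mm10, and its recorded command has neither a strand nor a paired-end option. The stressed libraries carried Ensembl identifiers, and the sources used here do not give their annotation release or command. A series table held 9 columns identical to the sample files and 3 columns not analysed here.

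Genes were joined through GENCODE vM21 (GRCm38, the assembly also called mm10): 26669 by symbol and locus and 923 by exon overlap (Jaccard index of at least 0.5), holding 94.8% to 99.1% of each library's counts. Nearly the same exons means a Jaccard index of at least 0.9 and lengths within 1.1 times. edgeR 4.0.16 in R 4.3.3 ran quasi-likelihood tests on all 12 libraries (TMM scaling, filterByExpr, Benjamini-Hochberg adjustment at 0.05), with the script tested on simulated data; SE values are derived from the test statistic. Adjusted p-values without another name are edgeR's. Intervals and floors cover counting error only, as the labels name no molecular identifiers. The main fits had no replicate block, since the labels do not say what the replicate number marks. The block was an alternative only. Same-numbered psilocybin and vehicle libraries had deviations that correlated at 0.112, 0.213 and 0.115, which does not show a pairing.

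The genes, lists and tests were chosen with earlier results of these data known. Named were the 7 genes in every comparison, pathway genes past the threshold (up to 6 a list, by smallest p) or else the 2 of a list with the smallest p over 4 groups, every ligand and receptor with its counts, and the 3 genes most like each of the 7 with at least 5 CPM. Alternatives were DESeq2 1.42.0, its size factors in edgeR, no filter, the replicate block, genes with nearly the same exons, the 9 stressed libraries alone, leaving out vehicle libraries 1 and 3, leaving out each library, unscaled totals and, for the most alike genes, all 12 libraries. Some genes of the pathway lists are not reported here.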

Additional observations from a re-analysis of the deposited data

How the results depend on the processing

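Counts of genes past the threshold moved by more than 1.5 times in most alternatives. In the order vehicle against unstressed, psilocybin against vehicle, MDMA against vehicle, psilocybin against unstressed, MDMA against unstressed and any difference among 4 groups, edgeR gave 478, 2, 94, 12, 17 and 81 and DESeq2 1749, 1057, 1336, 246, 219 and 1423. With DESeq2's size factors in edgeR the first 3 were 300.0, 0 and 3, and without the filter 295, 7 and 101, followed by 51, 66 and 282. Among genes with nearly the same exons they were 101, 3, 52, 0, 0 and 1, and with the replicate block 10, 0, 0, 5, 5 and 16. With the 9 stressed libraries alone, psilocybin and MDMA against vehicle gave 0 and 0, and without vehicle libraries 1 and 3 also 0 and 0, with 571 for any difference. Leaving out 1 library at a time gave 8 to 3678, 0 to 3542, 0 to 3615, 3 to 5, 2 to 4 and 11 to 2484. Every library left out moved the counts of its comparisons by more than 1.5 times, except in psilocybin against MDMA. The highest counts of the 3 comparisons with vehicle and of any difference came without vehicle library 2, the shallowest, and the cause was not tested. Psilocybin against MDMA gave 0 in the 12 alternatives run.

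Without vehicle libraries 1 and 3, which leaves library 2 alone in that group, assumed to vary like the others, the log2 difference of vehicle from unstressed turned to -0.11 for Ntrk2 and -1.93 for Sort1, and that of psilocybin from vehicle to 0.47 for Ntrk2 and 0.083 for Sort1, with 0.61 for Sort1 in MDMA against vehicle. Leaving out 1 library at a time, vehicle against unstressed ran from -0.060 to 0.65 for Ntrk2, -0.034 to 1.71 for Ngfr and -0.60 to 0.65 for Sort1. Psilocybin against vehicle ran from -0.31 to 1.35 for Ntf3, -0.33 to 0.41 for Ntrk2 and -1.11 to 0.62 for Ngfr. MDMA against vehicle ran from -0.91 to 0.73 for Ntf3 and -1.56 to 0.14 for Ngfr. MDMA against unstressed ran from -0.43 to 0.012 for Ntrk2, -0.23 to 0.34 for Ntrk3 and -0.13 to 0.52 for Ngfr. None of these values passed the threshold with all libraries. The Ntrk3 difference of vehicle from unstressed kept its direction in all 11 alternatives and passed in 6 (1 of them with vehicle library 2 alone), and those of psilocybin and MDMA from vehicle passed in 3 of 12 each: with DESeq2, without vehicle library 2 and without vehicle library 3. The 28 group levels of the 7 genes moved by less than 1 SD with unscaled totals. The replicate block ended the calls of Ntrk3 and Ripk2 given above and changed no other call of a named gene. A floor of 3 counts over the vehicle group is 0.545 CPM, which limits what can be said of Bdnf and Gdnf.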
